A study of Rattus norvegicus with 9 samples.

Results

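Type I, type III and type V collagens are the rope-like, fibril-forming proteins of connective tissue, and 4 of their genes are described here in an ageing laryngeal muscle of the rat. The members are *Col1a1* and *Col1a2*, which encode the α1 and α2 chains of type I collagen, *Col3a1*, which encodes the single chain of type III collagen, and *Col5a2*, which encodes an α2 chain of type V collagen. All probe sets whose only platform symbol is one of these genes were taken, 8 of the 8740 probe sets on the array without controls: 4 for *Col1a1*, 2 for *Col3a1* and 1 each for *Col1a2* and *Col5a2*. They are 4 of the 4736 genes that have a probe set of their own symbol alone. All 8 also passed the filter on low signal, which 5244 probe sets passed. The genes were picked because their signal was lower in old muscle in these same arrays, so their difference from 6 months is given as a description, and nothing is read from calls made on it. The muscle is the posterior cricoarytenoid, which opens the vocal folds. It was sampled at 6, 18 and 30 months of age, with 3 arrays per age, and the RNA on each array was pooled from 4 animals. No strain, sex or treatment is named in the sources used here, and 6 months is the baseline. The spread between arrays is thus a spread between pools, and p-values say nothing of single animals.

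In skeletal muscle these collagens are made mainly by fibroblasts of the sheaths around fibres and fascicles, not by the muscle fibres themselves. Chains are folded into triple helices in the endoplasmic reticulum, secreted, trimmed and cross-linked; type I supplies most of the tensile strength, type III forms finer fibrils often mixed with type I, and type V sits inside fibrils and governs their diameter. Type I collagen joins α1 and α2 chains in a fixed proportion, and their genes are usually expressed together. In bulk tissue, fewer fibroblasts and less collagen RNA per fibroblast cannot be told apart.

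Promoter sequence was at hand for *Col1a2* and *Col5a2*, 2 of the 4 genes, and is shown because these members varied together from array to array. The lines give the 250 bases before the annotated start, 5′ to 3′ on the gene's strand, from RefSeq on GRCr8: *Col1a2* at chr4:33518307-33518556 on the plus strand and *Col5a2* at chr9:55090152-55090401 on the minus strand. Capitals mark matches to TATAAA or CCAAT on either strand.
Col1a2: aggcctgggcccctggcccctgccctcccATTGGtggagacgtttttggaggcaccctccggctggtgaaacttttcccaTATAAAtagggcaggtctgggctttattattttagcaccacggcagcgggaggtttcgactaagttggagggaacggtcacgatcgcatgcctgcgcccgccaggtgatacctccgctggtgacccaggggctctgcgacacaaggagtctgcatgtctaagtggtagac
Col5a2: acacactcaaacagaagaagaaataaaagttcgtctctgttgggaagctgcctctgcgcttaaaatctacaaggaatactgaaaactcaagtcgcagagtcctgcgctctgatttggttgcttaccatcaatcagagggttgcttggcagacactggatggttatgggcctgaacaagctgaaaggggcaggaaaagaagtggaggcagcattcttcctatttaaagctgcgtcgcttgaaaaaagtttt

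The *Col1a2* window held TATAAA on its own strand at positions -170 to -165 from the annotated start and CCAAT on the opposite strand at -221 to -217. TATAAA on either strand occurred in 12.9% of 33469 promoter windows of this length, CCAAT in 34% and GGGCGG, the GC box, in 30.5%. The *Col5a2* window held none of these letters, and the *Col1a2* window did not hold GGGCGG. The windows also differed in base composition, with 58.4% G and C in *Col1a2* and 44.8% in *Col5a2*, against a median of 51.2% over all windows. In GRCr8, *Col3a1* and *Col5a2* are neighbours on chromosome 9 with 0 genes annotated between them, while *Col1a1* lies on chromosome 10 and *Col1a2* on chromosome 4.

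The strongest *Col1a1* probe set, M27207mRNA_s_at, gave 3139.4, 3152.8 and 2402.2 on the 6-month arrays, 1449.9, 1080.2 and 1590.8 on the 18-month arrays and 1384.6, 1198.6 and 1006.7 on the 30-month arrays. Values are signals of the authors' array software, in arbitrary units on a linear scale. Every array at 18 and at 30 months lay below the lowest array at 6 months, while the arrays at 18 and 30 months overlapped. The means were 2898 ± 429.5 at 6 months, 1374 ± 264 at 18 months and 1197 ± 189 at 30 months (SD, n = 3 arrays each). On the log2(signal + 32) scale the difference was -1.07 at 18 months and -1.25 at 30 months, each against 6 months, with a standard error of 0.18.

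The other *Col1a1* probe sets had weaker signals and the same order against 6 months. The probe set rc_AI231472_s_at averaged 1736 ± 137 at 6 months, 803 ± 263 at 18 months and 732 ± 133 at 30 months (SD, n = 3). Z78279_at averaged 709 ± 51.1, 317 ± 91.2 and 252 ± 50.7 at the same ages, the lowest share of the 6-month signal left at 30 months among the 8 probe sets, 35.5%. Z78279_g_at, which belongs to the same sequence record as Z78279_at and is therefore no independent measure, averaged 1131 ± 211, 527.5 ± 130.3 and 548 ± 165. It alone among the 8 had a mean at 30 months above that at 18 months, by 0.04 in log2 (standard error 0.23), which is within the spread between arrays.

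*Col1a2* was read by rc_AA875531_s_at, at 1364.7, 1196.2 and 1085.6 on the 6-month arrays, 610.7, 479.9 and 546.6 on the 18-month arrays and 496.8, 435.7 and 437.5 on the 30-month arrays. The 6-month arrays stood apart from all others, and this gene had the tightest arrays at 30 months, with a coefficient of variation of 7.61%. Its mean at 30 months was 37.6% of that at 6 months, with log2 differences of -1.11 at 18 months and -1.35 at 30 months (standard error 0.13 each).

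*Col3a1* was read by a pair of probe sets that differed in the size of the change. X70369_s_at gave 3522.3, 2648.1 and 2127.7 on the 6-month arrays, 1339.8, 865.3 and 1336.6 on the 18-month arrays and 1227.0, 960.4 and 825.8 on the 30-month arrays, and its log2 differences from 6 months were -1.20 and -1.42 (standard error 0.23). M21354_s_at gave 1604.1, 1514.3 and 1241.8 on the 6-month arrays, 1011.5, 627.3 and 1081.7 on the 18-month arrays and 871.6, 737.1 and 636.5 on the 30-month arrays, with log2 differences of only -0.69 and -0.93 (standard error 0.21). In each probe set no older array reached the lowest 6-month array, and 36.3% and 51.5% of the 6-month mean were left at 30 months.

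The log2 ratio of X70369_s_at to M21354_s_at took the values 1.14, 0.81 and 0.78 on the 6-month arrays, 0.41, 0.46 and 0.31 on the 18-month arrays and 0.49, 0.38 and 0.38 on the 30-month arrays. An exact permutation test of the F statistic over the 3 ages gave p = 0.0286, and p = 0.2 adjusted over the 7 pairs of probe sets of a same gene. The other 6 such pairs, all of *Col1a1*, had exact permutation p from 0.204 to 0.775. This comparison was added after the values were seen. Probe sets ending in _s_at can match more than one transcript, so a size read from one of them alone is uncertain.

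*Col5a2*, a minor fibril component by mass, was read by rc_AI179399_at at 573.9, 496.0 and 387.7 on the 6-month arrays, 284.8, 198.0 and 260.7 on the 18-month arrays and 234.3, 220.4 and 192.7 on the 30-month arrays. Again both older ages lay below every 6-month array. Its mean was 215.8 ± 21.2 at 30 months against 486 ± 93.5 at 6 months (SD, n = 3), with log2 differences of -0.88 at 18 months and -1.05 at 30 months (standard error 0.17 each).

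**Figure D1:**
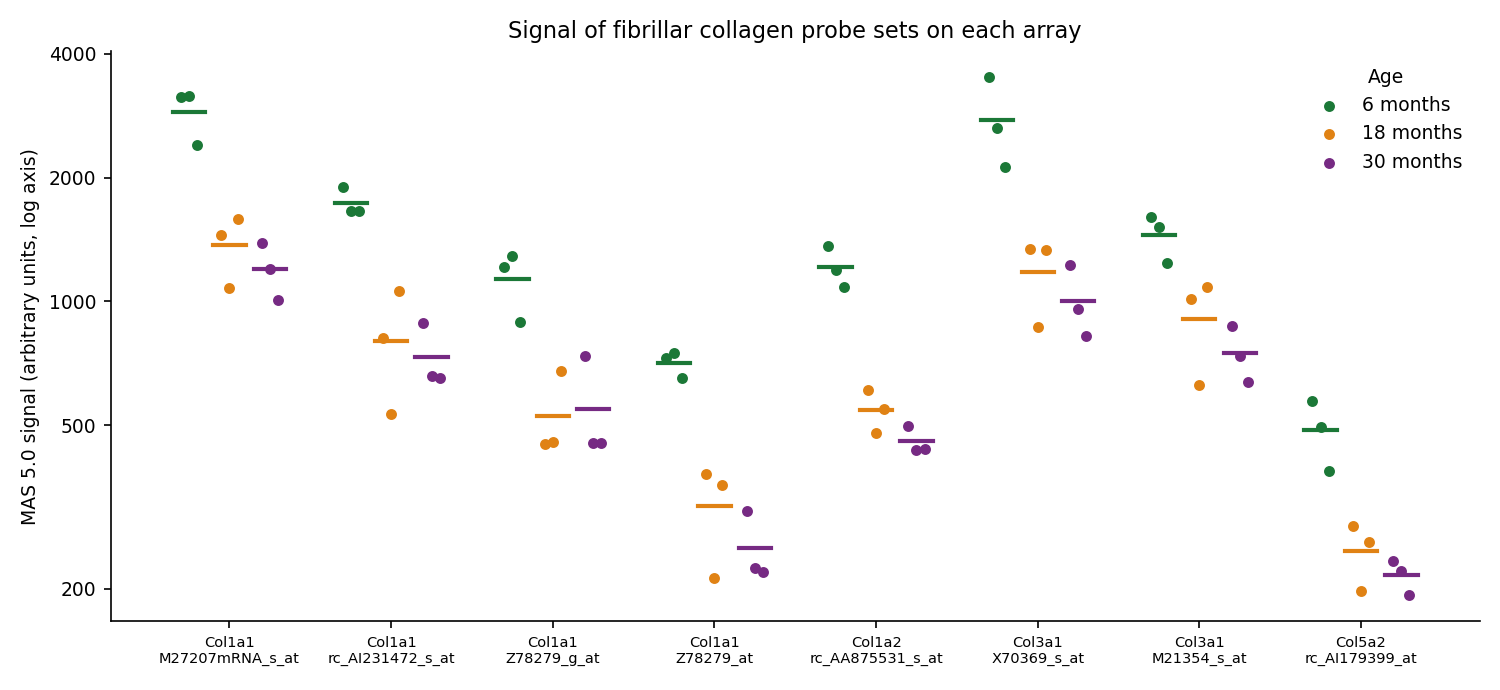
Signal of each of the 8 collagen probe sets on the 9 arrays (vertical axis, arbitrary units, logarithmic), with points for arrays, horizontal bars for the mean of 3 arrays, and colours for 6, 18 and 30 months. In each probe set all arrays at 18 and 30 months lie below the lowest array at 6 months, and those at 18 and 30 months overlap.

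Counted together, 8 of 8 member probe sets had every older array below every 6-month array, at 18 and at 30 months; of all tested probe sets, 8.35% did so at 18 months and 14.8% at 30 months. The members' median log2 difference was -1.09 at 18 months and -1.24 at 30 months, beside -0.04 and -0.05 over all tested probe sets. With limma and an adjusted p under 0.05, 5 of the 8 were called lower at 30 months against 6 months, with at least 1 in each of the 4 genes (0.172% of all tested probe sets were), and 1, that of *Col1a2*, at 18 months (0.0381% were). These are the differences the genes were picked on, so the counts are no test of them. They changed when single arrays were left out. At 18 months the count was 0 without replicate 1 or 2 of 6 months or replicate 2 or 3 of 18 months. In those fits only 0 to 2 of all tested probe sets were called. At 30 months the count of members was 0 without replicate 2 of 6 months or replicate 2 or 3 of 30 months. It was 1 without replicate 1 or 3 of 6 months, and 3 without replicate 1 of 18 months or replicate 1 of 30 months. In each of these fits all 8 still had an unadjusted p under 0.05. Where 0 members were called at 30 months, 0 of all tested probe sets were called. The *Col1a2* log2 difference was then -1.36, -1.32 and -1.32.

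**Figure D2:**
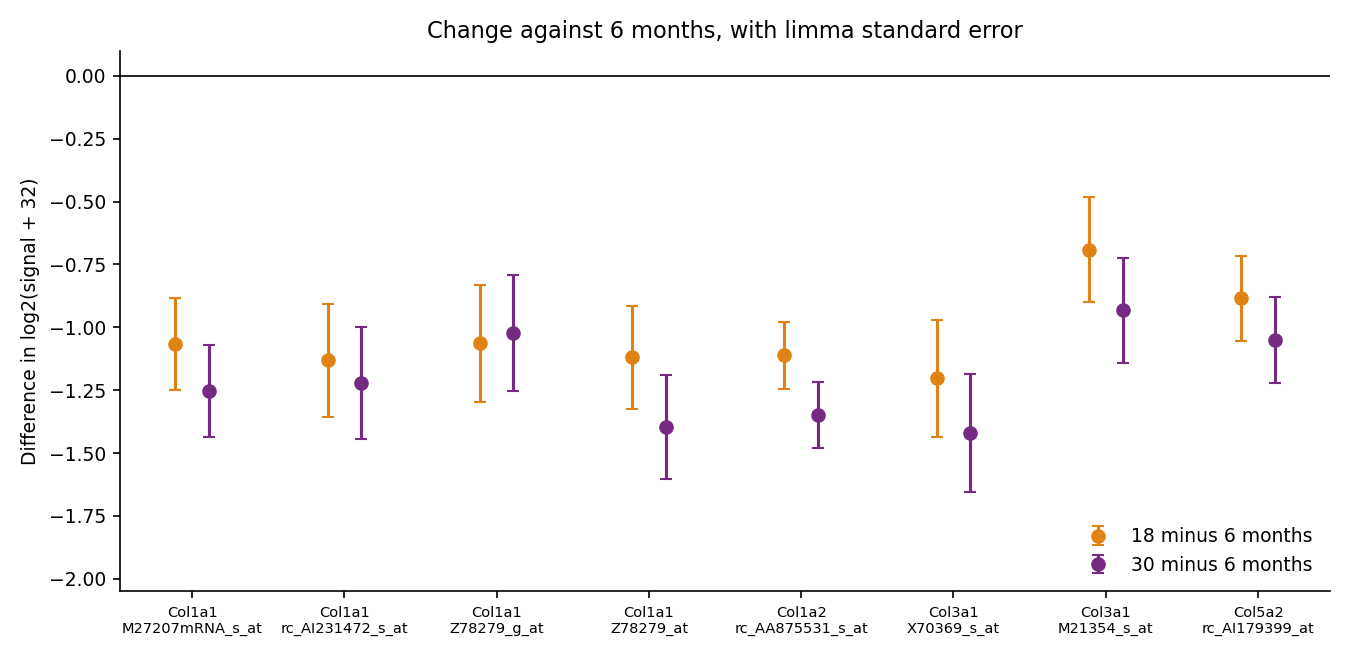
Difference in log2(signal + 32) of the 8 probe sets at 18 months (orange) and 30 months (purple) against 6 months; bars are standard errors from limma over 9 arrays. The values run from -0.69 to -1.20 at 18 months and from -0.93 to -1.42 at 30 months.

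Most of the difference was already present at 18 months. The log2 difference at 18 months was 74.2% to 104% of that at 30 months, lowest in M21354_s_at of *Col3a1*, 82.4% for *Col1a2* and 84.2% for *Col5a2*. The direct comparison of 30 with 18 months gave log2 differences from -0.28 to 0.04, 7 of 8 below 0, with a median of -0.20 beside -0.02 over all tested probe sets. In limma 0 of the 8 were called in this comparison and 0 had an unadjusted p under 0.05 (0.0% of all tested probe sets were called lower, and 54.1% were below 0). In 0 of 8 did the ages not overlap, while the older arrays were all lower in 4.18% of all tested probe sets. The comparisons share arrays, so their values are not independent of each other.

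Ratios between chains on the same array were not what the genes were picked on. Probes differ in brightness, so only the change of a ratio between ages is read. The choice of genes that were all lower favours small changes in their ratios. The log2 ratio of *Col1a1* to *Col1a2*, the chains of type I collagen, took the values 1.20, 1.40 and 1.15 on the 6-month arrays, 1.25, 1.17 and 1.54 on the 18-month arrays and 1.48, 1.46 and 1.20 on the 30-month arrays. The arrays of the 3 ages overlapped, and over single pairs of arrays the difference of 30 minus 6 months ran from -0.20 to 0.33 around a mean of 0.13 (standard error 0.13; exact permutation p = 0.579 over the 3 ages, adjusted p = 0.694 over 6 pairs of genes).

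The ratios of *Col1a1* to *Col3a1*, of *Col1a1* to *Col5a2* and of *Col1a2* to *Col3a1* likewise gave adjusted p of 0.568, 0.568 and 0.868 in the exact permutation test. Their mean changes of 30 minus 6 months were 0.17, -0.12 and 0.04, with single pairs of arrays spanning -0.08 to 0.49, -0.28 to 0.11 and -0.33 to 0.45. With the other *Col3a1* probe set, M21354_s_at, in place of X70369_s_at, the first and the last of these changes turned to -0.32 and -0.45 (exact permutation p = 0.0179 and 0.0929, adjusted p = 0.107 and 0.193).

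The ratios to *Col5a2* of *Col1a2* and of *Col3a1* by X70369_s_at were lower at the older ages, but the direction for *Col3a1* turned with its other probe set. The log2 ratio of *Col3a1* to *Col5a2* took the values 2.62, 2.42 and 2.46 on the 6-month arrays, 2.23, 2.13 and 2.36 on the 18-month arrays and 2.39, 2.12 and 2.10 on the 30-month arrays, so the 6-month arrays lay above all others. The ratio of *Col1a2* to *Col5a2* averaged 1.34 ± 0.13 at 6 months, 1.15 ± 0.11 at 18 months and 1.08 ± 0.10 at 30 months (SD, n = 3), without overlap between 30 and 6 months. Their changes of 30 minus 6 months were -0.29 and -0.25 (standard errors 0.11 and 0.09), with exact permutation p of 0.0857 and 0.0964 over the 3 ages. Adjusted over the 6 pairs, p was 0.289 for each, and the smallest p this test could give was 0.00357. By M21354_s_at the log2 ratio of *Col3a1* to *Col5a2* was 1.90, 1.74 and 1.72 at 30 months, against 1.48, 1.61 and 1.68 at 6 months. The mean change was 0.20 (exact permutation p = 0.121, adjusted p = 0.364). Over all 15 other pairs of probe sets of different genes, the change of 30 minus 6 months had the opposite sign in 9. Of these 9, 5 were pairs of *Col1a1* with *Col3a1*. With *Col5a2* the sign turned in 1 of 3 other pairs of *Col1a1* and in the 1 other pair of *Col3a1*. *Col1a2* and *Col5a2* had 1 probe set each, so their ratio had no other pair. A difference in the size of the decline between *Col5a2* and *Col1a2* or *Col3a1* was therefore not established.

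**Figure D3:**
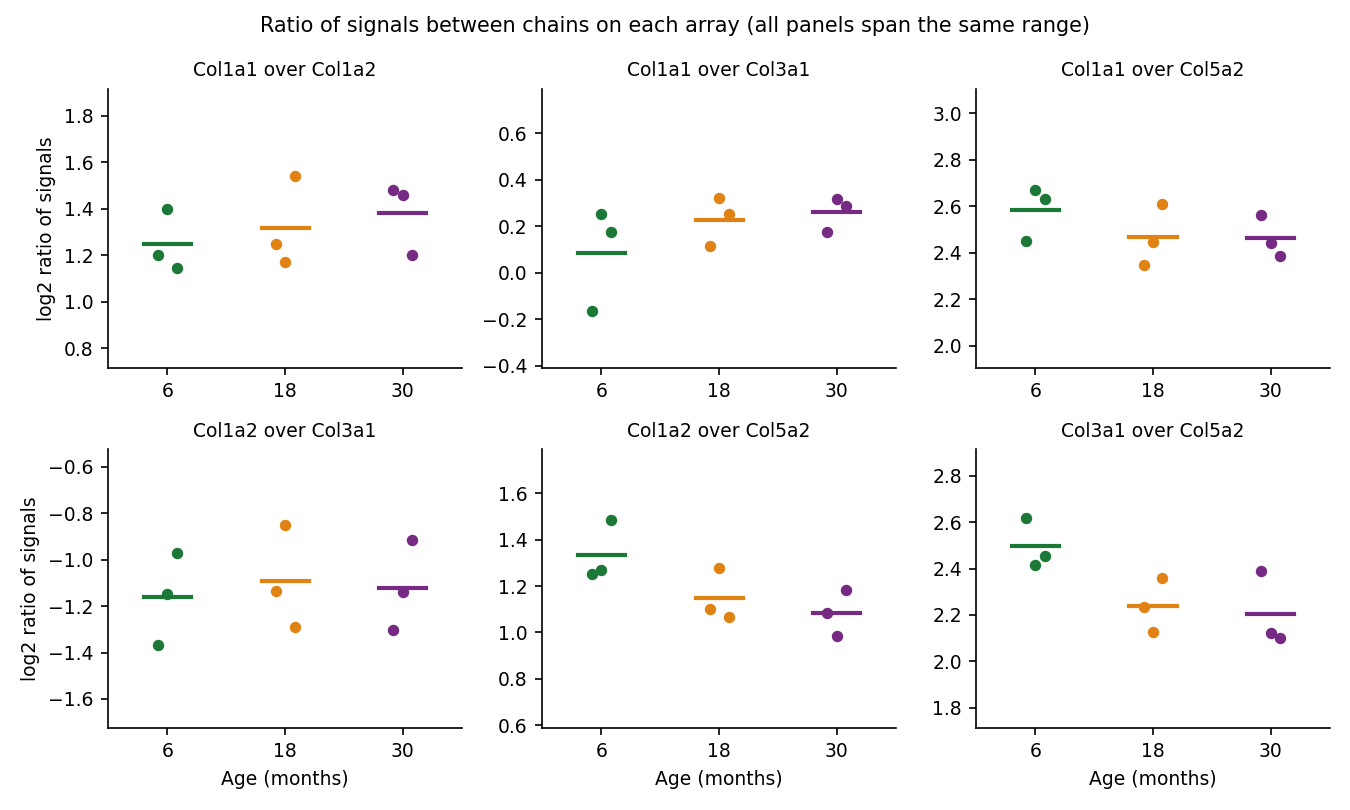
Log2 ratio of signals between each pair of the 4 genes on the 9 arrays, by age in months, each gene by its strongest probe set; points are arrays and bars are means of 3, and all panels span the same range. The 6-month arrays lie above the others for *Col3a1* over *Col5a2*, while most other panels overlap; with the other *Col3a1* probe set that difference turns to 0.20.

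Variation among pools of one age was likewise not used to pick the genes. Replicate 3 had the lowest signal of the 6-month arrays in 8 of 8 probe sets, replicate 2 the lowest of the 18-month arrays in 7 of 8, and replicate 1 the highest of the 30-month arrays in 8 of 8. On replicate 2 of 18 months, *Col3a1* lay 0.41 below its age mean on the log2 scale, *Col1a1* 0.32 below, *Col5a2* 0.27 below and *Col1a2* 0.17 below.

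After removal of the age means, *Col3a1* and *Col5a2* correlated at r = 0.95 over the 9 arrays (Spearman's rho 0.97), *Col1a2* and *Col5a2* at 0.94 (0.97), *Col1a2* and *Col3a1* at 0.93 (0.97), *Col1a1* and *Col3a1* at 0.92 (0.78), *Col1a1* and *Col5a2* at 0.89 (0.72) and *Col1a1* and *Col1a2* at 0.78 (0.72). Permuting arrays within ages, an exact two-sided test over all such arrangements, gave p from 0.00463, the smallest it can give, to 0.0741. The first 5 pairs had an adjusted p = 0.0278 over 6 pairs in this exact test, and the *Col1a1* and *Col1a2* pair p = 0.0741. For rho the exact adjusted p was 0.0185 for the 3 pairs among *Col1a2*, *Col3a1* and *Col5a2*, and 0.0833 to 0.107 for the pairs with *Col1a1*. Without the 2 arrays farthest from the median, r was 0.71 to 0.94 in the first 5 pairs and 0.50 in the *Col1a1* and *Col1a2* pair.

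These calls did not survive the loss of single arrays. With 8 arrays, 72 arrangements remain and r stayed between 0.65 and 0.97, but the exact adjusted p was 0.0417 to 0.222. It stayed under 0.05 in 4 of 54 cases, the pairs of *Col3a1* with *Col1a2* and with *Col5a2* when replicate 2 or 3 of 30 months was left out. Without any 1 of the other 7 arrays no pair was under 0.05, and the smallest p such a test can give is 0.0139. The signals of an array share its labelling and overall scaling. Replicate 2 of 18 months also had the lowest median signal of all arrays, 104, in a range of 104 to 125, and replicate 3 the lowest at 6 months, 120.1. At 30 months the order differed: replicate 1, the highest in the members, had a median of 110.7, between 104.8 on replicate 2 and 112.2 on replicate 3. The part of labelling, scaling and these medians in the shared variation was not tested. Over 3159 other tested genes the within-age correlation with the mean of the 4 members had a median of 0.09 and exceeded 0.8 in 3.32%.

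**Figure D4:**
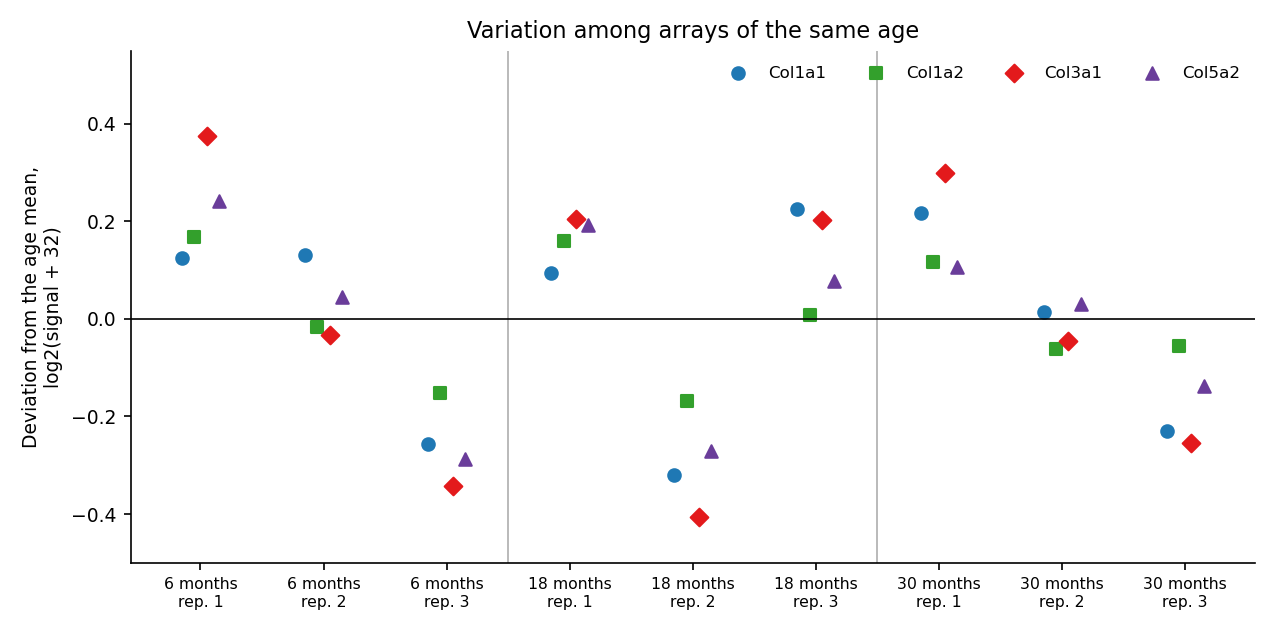
Deviation of each gene's log2(signal + 32) from the mean of its age on the 9 arrays, each gene by its strongest probe set. The 4 genes lie together below 0 on replicate 3 of 6 months, replicate 2 of 18 months and replicate 3 of 30 months. They lie together above 0 on replicate 1 of each age and on replicate 3 of 18 months.

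The genes with the most similar course to the members over the 9 arrays were looked for among 3159 genes by Pearson's r with the mean standardised log2 signal of the 4 members. This is a description with no p, and the 6-month arrays standing apart from the rest set most of it. The 10 nearest were *Timp2* (r = 0.98), *Dbn1* (0.97), *Enpp1* (0.96), *Timp1* (0.95), *Plod2* (0.95), *Fn1* (0.95), *Htr5a* (0.94), *Col15a1* (0.94), *Gabbr2* (0.93) and *Pafah1b3* (0.92). *Timp1* and *Timp2* encode inhibitors of matrix metalloproteinases, *Plod2* a lysyl hydroxylase that prepares collagen for cross-linking, *Fn1* fibronectin, and *Col15a1* a basement-membrane collagen. *Dbn1* encodes the actin-binding protein drebrin and *Enpp1* a pyrophosphate-forming enzyme, while *Htr5a* and *Gabbr2* encode neurotransmitter receptors with weak signals here. The other probe sets of *Fn1* had r of only 0.26 to 0.40, and the other one of *Dbn1* 0.39, so these likenesses hold for single probe sets.

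The log2 differences of the nearest genes were smaller than those of the collagens. *Timp2* averaged 1713 ± 153 at 6 months, 1182 ± 125 at 18 months and 1082 ± 82.0 at 30 months (SD, n = 3), a log2 difference at 30 months of -0.65. For *Plod2* that difference was -0.43, for *Enpp1* -0.46 and for *Fn1* -0.81, against -1.05 to -1.42 for the strongest probe sets of the members.

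Genes of the collagen pathway other than the members were taken from 7 lists with 161 genes, of which 98 were on the array and 74 passed the signal filter. In limma 0 of the 74 were called in any comparison, while 15 lower and 4 higher had an unadjusted p under 0.05 at 30 months, and 15 lower and 0 higher at 18 months. Of all tested genes 9.11% were lower and 3.95% higher at this threshold at 30 months, and 5.72% and 2.97% at 18 months. The background was 0.316% of 3163 tested genes called at 30 months and 0.0632% at 18 months against 6 months, and 0.0% at 30 against 18 months. In 23 of the 74 all arrays at 30 months were below all at 6 months, 31.1%, beside 16.1% of all tested genes, and in 3 all were above, beside 7.15%. At 18 months all arrays were below in 19, beside 8.69%, and above in 2, beside 5.22%. By sign alone, 52 of the 74 lay below 6 months at 30 months and 56 at 18 months, beside 60.7% and 57.8% of all tested genes. The median log2 difference over the 74 was -0.17 at 30 months and -0.21 at 18 months, against -0.06 and -0.04 over all tested genes.

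Among other fibrillar collagens 1 of 3 on the array was measurable. *Col5a1*, which encodes the partner chain of *Col5a2* in type V collagen, averaged 406 ± 73.9 at 6 months, 320.1 ± 17.5 at 18 months and 320.3 ± 36.5 at 30 months (SD, n = 3), a log2 difference at 30 months of -0.31 (standard error 0.14, limma adjusted p = 0.395). The log2 ratio of *Col5a1* to *Col5a2* was -0.26 ± 0.11 at 6 months, 0.38 ± 0.20 at 18 months and 0.57 ± 0.13 at 30 months (SD, n = 3). All 6 older arrays lay above the 6-month arrays, but since *Col5a2* was picked for its decline this was not tested. The cartilage collagens *Col2a1* and *Col11a1* had mean signals of 5.63 to 21.8 at every age in each of their probe sets and were below the filter.

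All 4 measured non-fibrillar collagens lay below 6 months at 30 months, with a median of -0.41. Of these, 3 were lower without overlap, beside 16.1% of all tested genes. *Col15a1*, of the basement membrane zone of muscle and vessels, averaged 342 ± 12.7 at 30 months against 473 ± 34.4 at 6 months, and *Col10a1*, a collagen of growth cartilage, 125 ± 34.8 against 197 ± 35.7 (SD, n = 3). The limma adjusted p were 0.234 and 0.403. The other *Col10a1* probe set averaged 7.41 over all arrays and was below the filter, so the level of this gene rests on 1 probe set and is uncertain. After quantile normalization *Col4a5* changed sign at 18 months.

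For the machinery that folds and modifies collagen the median log2 difference over 14 genes was -0.04 at 30 months and -0.21 at 18 months, with 10 and 11 genes below 0. The most abundant were *Calr*, which encodes the chaperone calreticulin (log2 difference at 30 months 0.29, without overlap), and *P4hb*, the shared subunit of prolyl 4-hydroxylase (0.02, with its sign turning after quantile normalization). At 30 months 4 of the 14 were lower without overlap, beside 16.1% of all tested genes, and they were named for it after their values were seen: *Plod2*, lysyl oxidase *Lox* (-0.50), the catalytic subunit *P4ha1* (-0.25) and the collagen chaperone *Serpinh1* (-0.26). The lysyl hydroxylase genes *Plod1* (-0.01) and *Plod3* (0.001), the procollagen protease enhancer *Pcolce* (-0.17) and the lysyl oxidase-like *Loxl1* (-0.25) overlapped between these ages. These values are those of the brightest probe sets. The other probe set of *Plod3* had 0.27, higher without overlap, and that of *Loxl1* -0.56, lower without overlap. The other tested probe sets of *Lox* had -0.16 and -0.44, both with overlap.

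Of 11 fibril-associated matrix genes 9 lay below 6 months at 30 months, with a median of -0.28. *Sparc*, a collagen-binding glycoprotein and the most abundant gene of the list, averaged 16290 ± 2312 at 30 months against 14850 ± 2085 at 6 months (SD, n = 3; log2 0.13, turning below 0 after quantile normalization), but its other probe sets had -0.14, -0.71 and -0.17. *Dcn*, which encodes decorin, a proteoglycan that coats fibrils, averaged 9919 ± 934 at 6 months, 7919 ± 272 at 18 months and 9266 ± 488 at 30 months. Its arrays at 18 months lay below those at 6 months, whereas those at 30 months overlapped them. Its other probe sets had log2 differences at 30 months of -0.75 and -0.16, both without overlap, and -0.30, with overlap.

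Collagen breakdown and its inhibitors had a median of -0.27 over 14 genes at 30 months. Without overlap, 8 lay below and 0 above, beside 16.1% and 7.15% of all tested genes. The most abundant were the lysosomal cathepsins *Ctsl* (-0.16) and *Ctsb* (0.23), and examples named after their values were seen were cathepsin K, *Ctsk*, which cleaves collagen helices (-0.83), and gelatinase *Mmp2* (-0.56). Among 5 collagen receptor genes the median was 0.06 at 30 months, and by their brightest probe sets 0 were without overlap in either direction. The integrin subunit *Itgb1* had a log2 difference of -0.15 and the scavenger receptor *Cd36* one of 0.74. The other *Cd36* probe set had -0.07, so the direction for this gene differed between its probe sets. Among 25 regulators of collagen genes the median was -0.09. The most abundant, the transcription factors *Cebpb* and *Jun*, had log2 differences of 0.49 and -0.09. *Tgfb1*, named after its values were seen, which encodes the best-known inducer of collagen genes, averaged 215 ± 8.24 at 30 months against 123 ± 69.9 at 6 months (SD, n = 3; log2 0.77, limma adjusted p = 0.334). The related *Tgfb2* and *Tgfb3* had log2 differences of the other sign, -0.42 without overlap and -0.24.

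**Figure D5:**
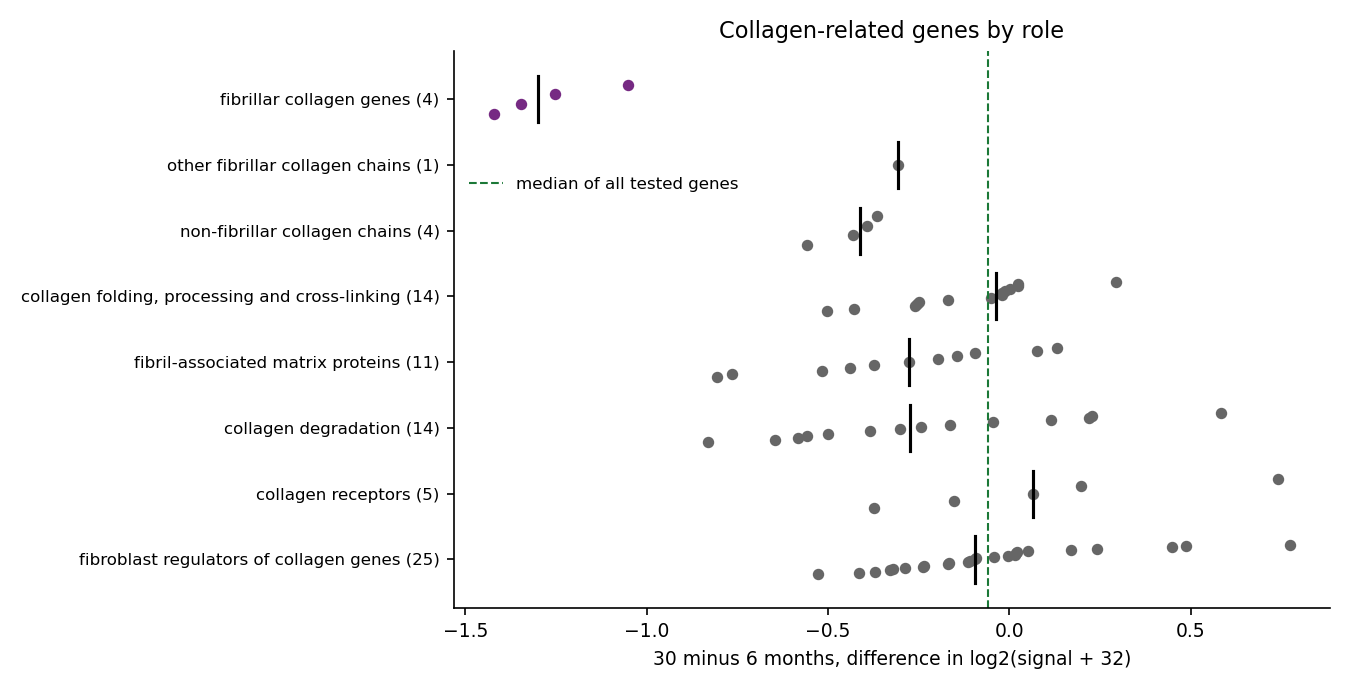
Difference in log2(signal + 32) of 30 minus 6 months for the 4 collagen genes (top) and for tested genes of 7 related lists, 1 point per gene by its strongest probe set, with a black bar at each median and a dashed line at the median of all tested genes, -0.06. The collagens run from -1.42 to -1.05, below every gene of the other lists.

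Markers of cell types were read from 12 lists. Of 12 fibroblast markers 8 were on the array, and 6 of these lay below 6 months at 30 months, with a median log2 difference of -0.14. At 18 months 7 of the 8 lay below, with a median of -0.31. Of all tested genes 60.7% lay below at 30 months and 57.8% at 18 months. The summed fibroblast signal, mostly *Dcn*, was 13260 to 15530 at 6 months, 11740 to 12080 at 18 months and 13340 to 13820 at 30 months, so 30 months overlapped 6 months while 18 months did not. This rests on the brightest *Dcn* probe set: with any of its other 3 probe sets the sum at 30 months lay below that at 6 months without overlap, for example 5050.0 to 6309 against 6563 to 7536 with rc_AI639233_s_at. Without *Dcn* the sum was 3829 to 4638 at 30 months against 4421 to 5028 at 6 months, with overlap. All 11 skeletal muscle markers on the array lay above 6 months at both older ages, with summed signals of 188000 to 218500 at 6 months, 224200 to 267200 at 18 months and 228700 to 249000 at 30 months. No marker of any list was listed at 0. Cartilage markers, which would mark tissue from the laryngeal skeleton, summed to 289.6 to 380 at 6 months, 162 to 320 at 18 months and 185 to 263 at 30 months. The sums at 30 months lay below those at 6 months without overlap, while those at 18 months overlapped them. The brightest of these markers was *Col10a1*, with a mean of 155 over all arrays by the probe set described above. Epithelial markers summed to 159 to 265 over all arrays. The macrophage and leukocyte sum was 1300.0 to 1480.0 at 6 months, 1109 to 1386 at 18 months and 1419 to 1908 at 30 months. It was largely *Lyz2* and *Cd74*, and 3 of its 8 markers lay below 6 months at 30 months (median log2 difference 0.12). The Schwann cell sum was 3239 to 3895, 2884 to 3202 and 2823 to 3124, without overlap between either older age and 6 months. It was mostly *Pmp22*, with a mean of 2086 over all arrays. Of its 6 markers 4 lay below at 30 months (median -0.17), while *S100b* and *Sox10* lay above. The endothelial, smooth muscle, adipocyte, bone, tendon and thyroid lists had median log2 differences of -0.19, -0.01, 0.04, 0.07, -0.20 and -0.21 at 30 months, with sums that overlapped those at 6 months. Of 77 marker genes on the array 54 passed the signal filter, among them only 1 of 6 cartilage and 1 of 6 epithelial markers, and in limma 0 of these 54 were called in any comparison. The part of these shifts in the collagen values was not tested. The 2% trimmed mean signal was 500.9 to 501 on all arrays. *Gapdh* gave 3′ over 5′ signal ratios of 1.03 to 1.17 and β-actin of 0.904 to 1.17.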

How the data were processed

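The authors hybridized biotinylated cRNA to Affymetrix Rat Genome U34 arrays and deposited signal intensity from Affymetrix Microarray Suite 5.0 on a linear scale, per the series' design text and the submitters' processing notes. The scaling target is not given, and detection calls were not used here. Signals were taken as log2(signal + 32). The upper 60% of 8740 probe sets by mean log2 were tested (5244) in limma 3.58.1 under R 4.3.3, with 1 mean per age over 9 arrays, two-sided p, and Benjamini-Hochberg adjustment over 5244 at 0.05. A gene was represented by its brightest probe set. Ratios and within-age correlations were tested by exact permutation of arrays, two-sided. Scripts were tested on simulated data. The 4 members, the 7 pathway lists and the 12 marker lists were chosen with earlier results of these data known. The naming rule took, per list, genes called in any comparison or else the 2 strongest. Gene names come from the platform's table and GRCr8. The number of arrays limits the precision. Alternatives were pseudocounts of 8 and 64, other filters, quantile normalization, a replicate block and leaving out each array.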

Additional observations from a re-analysis of the deposited data

How the results depend on the processing

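All 240 log2 differences of the 8 probe sets against 6 months under 15 alternatives were below 0, from -1.59 to -0.45. The number called lower at 30 months, 5 as reported, was 3 with a pseudocount of 8, 1 with no filter, 3 after quantile normalization, 3 with replicate number as a block and 0 to 7 when 1 array was left out; at 18 months it was 0 to 1 when 1 array was left out, against 1. The cause was not tested. Same-numbered arrays correlated at -0.02 to 0.26 in their deviations from the age means. These values were not set beside those of differently numbered arrays, so whether replicate numbers pair the arrays was not tested. For 30 minus 18 months, where 0 probe sets were called, Z78279_g_at turned to -0.05, -0.05 and -0.18 without replicates 1 or 2 of 18 months or replicate 1 of 30 months, and rc_AI231472_s_at to 0.13 without replicate 3 of 18 months, with ranges over single arrays left out of -0.18 to 0.22 and -0.35 to 0.13. No pathway gene was called under any of the 15 alternatives. All 87 ratio tests under alternatives, including 15 other pairs of probe sets and the replicate block, kept an adjusted p over 0.05 (0.0857 to 0.943). The direction was less stable: over the 15 other pairs the change of 30 minus 6 months turned its sign in 9, including all 4 pairs of M21354_s_at with *Col1a1* (-0.55 to -0.11, against 0.17), and 3 of these had an exact unadjusted p of 0.0143 to 0.0214. Within-age r with the replicate block removed, for which no p was computed, was 0.82 for *Col1a1* and *Col1a2*, 0.95 for *Col1a1* and *Col3a1*, 0.87 for *Col1a1* and *Col5a2*, 0.86 for *Col1a2* and *Col3a1*, 0.97 for *Col1a2* and *Col5a2* and 0.93 for *Col3a1* and *Col5a2*. Without 1 array, r was 0.65 to 0.86, 0.86 to 0.97, 0.81 to 0.93, 0.90 to 0.97, 0.90 to 0.97 and 0.93 to 0.97 in the same order. After quantile normalization r of *Col1a1* and *Col1a2* was 0.87, and its exact adjusted p was 0.0278, under the threshold.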

Other observations

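Within ages, after removal of the age means, the pathway genes differed widely in their correlation with the 4 collagens over the 9 arrays. The genes named here were chosen after their values were seen. Fibronectin, *Fn1*, had r = 0.92 with the mean of the members and the lysyl hydroxylase gene *Plod1* 0.83, the 2 of 74 genes of the 7 lists above 0.8 (2.7%, beside 3.32% of all 3159 genes). Next came the matrix gene *Postn* (0.79), the inhibitor gene *Timp2* (0.79) and the matrix genes *Bgn* (0.77) and *Ltbp1* (0.74). The receptor gene *Cd44* (0.73) and the partner chain *Col5a1* (0.72) followed. At the other end, the growth factor gene *Igf1* had -0.80 and the chaperone gene *Hsp90b1* -0.77. The median was 0.62 over 11 fibril-associated matrix genes, 0.48 over 4 non-fibrillar collagens, 0.36 over 14 degradation genes, -0.12 over 14 folding and processing genes and -0.09 over 25 regulators, beside 0.09 over 3159 genes. *Plod1* had a log2 difference of -0.01 at 30 months against 6 months, which is within the spread between arrays. These are values on shared arrays with no test.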
